A study of Mus musculus with 4 samples.

Results

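The transcription factors that keep a hepatocyte a hepatocyte, and the ligand-activated receptors that act with them, were followed in the livers of mice with and without AApoAII amyloidosis and interval exercise training (IT). The set held 9 genes: Hnf4a (HNF4A), Foxa2 (FOXA2), Cebpa (C/EBPα), Onecut1 (HNF6), Nr1h4 (FXR), Nr1i2 (PXR), Nr1i3 (CAR), Ppara (PPARα) and Rxra (RXRα). They were chosen by name, and each matched a single row among the 35275 genes of the read count table. All 9 had at least 1 CPM (counts scaled to library size) in 1 or more libraries, as did 12180 genes in all. The liver RNA came from 4 groups of female R1.P1-Apoa2c mice, which carry the amyloidogenic c allele of apolipoprotein A-II. GEO's labels give the strain as AKR/J with an Apoa2c congenic genotype, and every group carried this allele. Vehicle sedentary mice (VS) received saline and no training. The VI group received vehicle and IT on a treadmill for 16 weeks. FS mice were injected intravenously with AApoAII fibrils, which seed deposits of the animals' own apolipoprotein A-II, and stayed sedentary. In FI mice the fibril injection was combined with IT. All mice were 26 weeks old when liver was taken. Tissue from 4 mice per group was pooled before RNA extraction, so each group is 1 library and its value holds no spread between animals. Every interval given here covers counting error only.

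HNF4A, FOXA2, C/EBPα and HNF6 bind to the promoters and enhancers of liver genes and to those of one another, which is why they are described as a network that maintains hepatocyte identity. FXR senses bile acids, PXR and CAR sense drugs and other foreign compounds, and PPARα senses fatty acids. Each of these receptors binds DNA as a partner of RXRα and switches on its own set of enzymes and transporters, whereas HNF4A binds as a pair of its own.

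The promoters of 5 genes are shown because these were the ones that differed by more than 1.5-fold, with TMM scaling, in at least 1 of the 4 contrasts described below. Each sequence is the 250 bases before a RefSeq start site (GRCm38.p6, the same assembly as the mm10 of the files), written 5′ to 3′ on the strand of the gene. Each of these start sites was also the start of the gene in the deposited table, and for Foxa2 it is the outermost of several. Capitals mark a match, on either strand, to one of 6 short motifs, and none of the matches overlap. Nuclear receptors bind elements with the letters AGGTCA. Forkhead proteins such as FOXA2 prefer sites that hold TGTTTAC. The core bound by HNF6 reads ATCAAT in its shortest form. Basic helix-loop-helix proteins, those of the clock among them, recognise the E-box, spelled CACGTG here. The common promoter factor NF-Y binds where the sequence reads CCAAT on one strand or the other. A TATA box, which places the start of transcription, was searched as TATAAA alone.
Nr1i3, chr1:171213720-171213969, plus strand: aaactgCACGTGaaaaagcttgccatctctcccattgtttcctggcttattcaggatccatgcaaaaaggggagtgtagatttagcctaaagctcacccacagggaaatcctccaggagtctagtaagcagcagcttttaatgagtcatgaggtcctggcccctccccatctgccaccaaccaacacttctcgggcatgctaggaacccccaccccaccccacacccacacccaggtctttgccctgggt
Foxa2, chr2:148046970-148047219, minus strand: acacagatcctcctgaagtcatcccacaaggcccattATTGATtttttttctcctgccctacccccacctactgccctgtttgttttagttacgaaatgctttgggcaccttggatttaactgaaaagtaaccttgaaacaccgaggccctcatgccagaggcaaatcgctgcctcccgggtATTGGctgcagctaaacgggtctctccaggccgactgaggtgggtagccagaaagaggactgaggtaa
Cebpa, chr7:35119043-35119292, plus strand: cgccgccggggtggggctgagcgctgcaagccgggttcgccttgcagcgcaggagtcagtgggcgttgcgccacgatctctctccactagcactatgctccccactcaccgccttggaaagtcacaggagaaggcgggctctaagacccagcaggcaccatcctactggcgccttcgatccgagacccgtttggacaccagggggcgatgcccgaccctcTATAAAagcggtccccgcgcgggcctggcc
Nr1i2, chr16:38294825-38295074, minus strand: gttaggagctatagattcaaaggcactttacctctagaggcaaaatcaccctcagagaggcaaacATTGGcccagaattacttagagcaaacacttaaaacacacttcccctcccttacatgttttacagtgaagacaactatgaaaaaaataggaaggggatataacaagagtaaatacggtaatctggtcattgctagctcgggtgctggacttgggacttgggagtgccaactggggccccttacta
Onecut1, chr9:74861671-74861920, plus strand: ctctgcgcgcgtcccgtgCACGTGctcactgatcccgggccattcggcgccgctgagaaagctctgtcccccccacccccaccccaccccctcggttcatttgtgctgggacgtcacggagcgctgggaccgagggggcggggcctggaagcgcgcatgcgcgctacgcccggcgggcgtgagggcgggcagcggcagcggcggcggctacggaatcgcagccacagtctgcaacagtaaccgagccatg
Counting back from the start site, Nr1i3 had an E-box at bases 244 to 239 and Onecut1 had one at bases 232 to 227. The Foxa2 window held an HNF6 core at bases 213 to 208 and a CCAAT element at bases 68 to 64, both on the opposite strand. Cebpa had a TATA box at bases 30 to 25, and Nr1i2 a CCAAT element at bases 185 to 181 on the opposite strand. Among 32851 RefSeq promoters cut to the same length, 6.02% held the E-box, 6.72% the HNF6 core, 33.8% the CCAAT element and 12.4% the TATA box. The forkhead letters were in 3.17% of promoters and the nuclear receptor element in 14%, and neither was in any of the 5 windows. These matches describe letters and were not tested as binding sites.

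Depth was similar across the series, with 23442935 to 28814802 counts per library, and TMM scaling factors ran from 0.975 to 1.025. A count of 3 corresponded to between 0.102 CPM in FS and 0.127 CPM in VS. Albumin (Alb), the main secreted protein of hepatocytes, took 12.1% to 13.6% of counts, and the summed level of 6 hepatocyte markers ran from 156388 to 171326 CPM, so the labelled tissue was borne out by its markers. The VS library stood apart in skeletal muscle transcripts, whose 12 markers summed to 72.4 and 9.32 CPM in VS and VI, against 1.08 and 0.951 CPM in FS and FI. Neutrophil markers summed to 2.67 and 3.28 CPM in VS and VI, against 17.5 and 13.2 CPM in FS and FI, and Kupffer cell and macrophage markers to 215, 267, 335 and 317 CPM in the same order. The part that these other cell types play in the results was not tested.

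Levels were compared between genes as FPKM, which divides by gene length. Hnf4a and Cebpa were the 2 highest of the 9 factors in every library, and Onecut1 was the lowest in every library, with 0.647 to 1.16 FPKM. Cebpa stood above Hnf4a in VS, with 236 FPKM against 168 FPKM. In the other 3 libraries the order was the opposite, with 152 FPKM for Cebpa against 190 FPKM for Hnf4a in VI, 164 against 186 FPKM in FS and 136 against 227 FPKM in FI. Rxra came next at 85.3 to 97.9 FPKM, a range that met that of no other factor. Nr1i3 (29.1 to 73.4 FPKM), Nr1i2 (42.8 to 63.9 FPKM) and Nr1h4 (42.9 to 58.3 FPKM) overlapped in their ranges, and their order was not the same in every library. Nr1i3 led these 3 receptors in VS and was the last of them in the other 3 libraries. Ppara (18.5 to 24.0 FPKM) and Foxa2 (9.49 to 17.8 FPKM) followed without overlap. With 1 library per group, these ranges describe the libraries and were not tested.

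**Figure D1:**
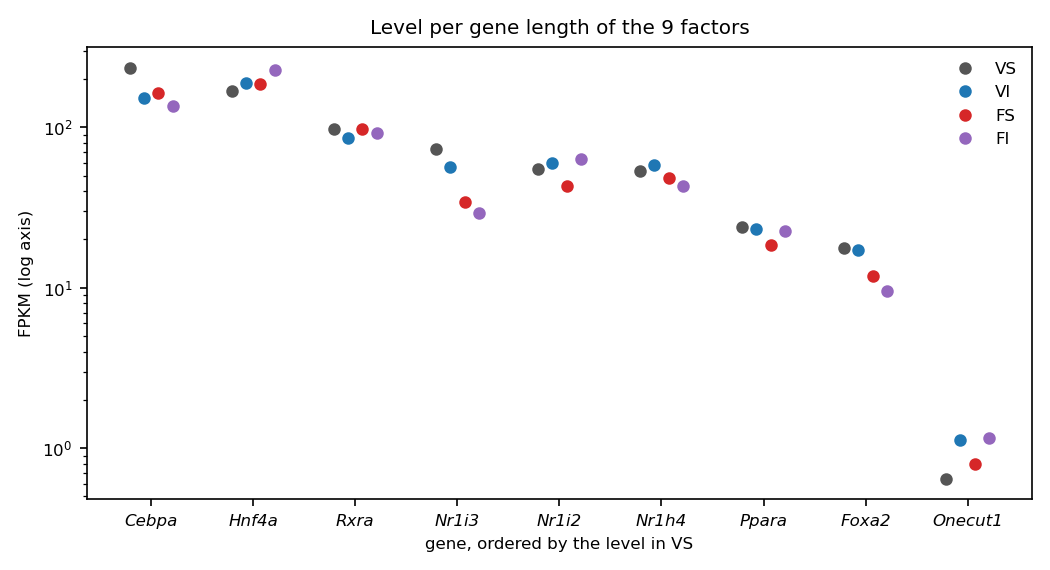
Level per gene length of the 9 factors. The vertical log axis gives FPKM as deposited, points are the 4 pooled libraries, and genes are ordered by their level in VS. Cebpa lies above Hnf4a only in VS, and Nr1i3 drops from 73.4 FPKM in VS to 29.1 FPKM in FI.

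Between libraries, levels are given as CPM scaled by TMM, with exact Poisson 95% intervals, and differences as log2 ratios with Clopper-Pearson 95% intervals. In all, 4 contrasts were made. VI against VS and FI against FS compare training with no training, and FS against VS and FI against VI compare fibril with vehicle. The paper reports less liver amyloid in FI than in FS, so FI against FS differs in amyloid load as well as in training. FI against VI likewise sets a smaller load against vehicle than FS against VS does. The parts of load and training cannot be told apart here. VI against VS and FS against VS share the VS library, and the other 2 share FI, so a high or low value in VS or FI enters both. Likewise FS against VS and FI against FS share FS, and VI against VS and FI against VI share VI. A high or low value in FS or VI enters its 2 contrasts with opposite sign. A second view used an additive model of training and amyloidosis over all 4 libraries, fitted to 11760 genes by quasi-likelihood in edgeR, with p-values adjusted by Benjamini-Hochberg. The 1 degree of freedom left over is the interaction of both factors, so it measures how far the effect of one factor differed with the other, and not a spread between mice.

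Most factors differed by less than 2-fold in every contrast. Nr1i3 was the 1 gene of the 9 past 2-fold, and it was so in FS against VS alone, where 5.78% of tested genes were past 2-fold. In VI against VS, FI against FS and FI against VI none of the 9 was past 2-fold, against 3.44%, 4.26% and 4.54% of tested genes. At 1.5-fold the count was 2 of 9 in each contrast, against 11.7% of tested genes in VI against VS, 13.5% in FI against FS, 17.5% in FS against VS and 14% in FI against VI. The count in FI against FS was 0 of 9 with scaling by total counts or with FPKM, where Nr1i2 had 0.57 to 0.58 and Onecut1 0.27 to 0.54. The median log2 ratio of the 9 factors was -0.01 in VI against VS, -0.02 in FI against FS, -0.39 in FS against VS and -0.03 in FI against VI. Over all tested genes the medians were 0.00, 0.00, 0.02 and 0.01. In FS against VS, 7 of the 9 factors were lower in FS.

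**Figure D2:**
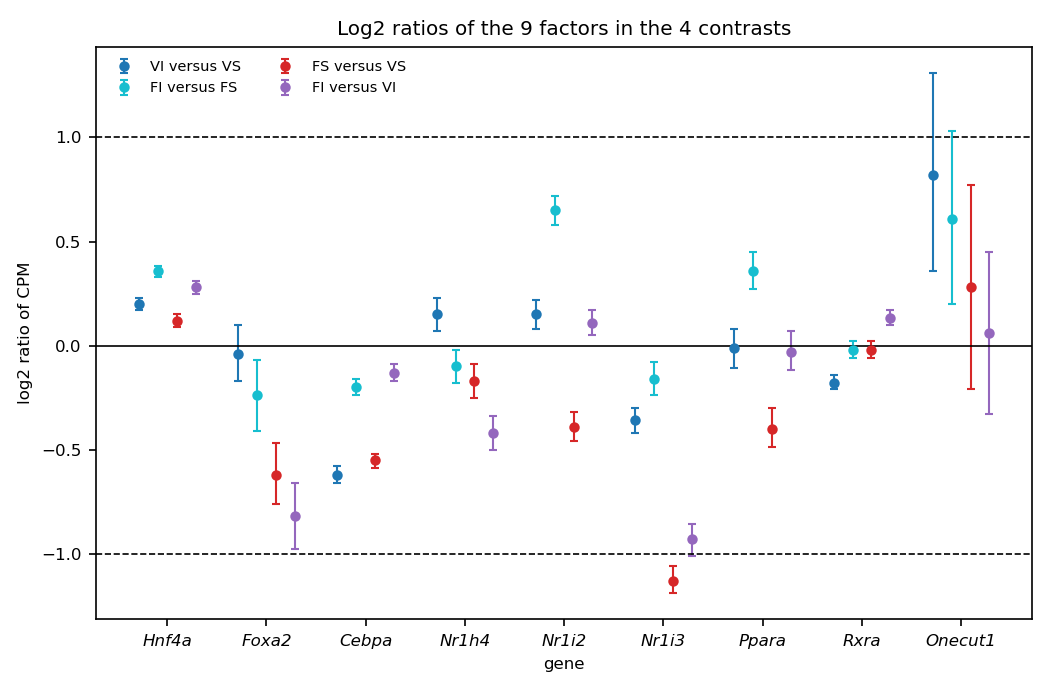
Log2 ratios of CPM for the 9 factors in the 4 contrasts. Points are the ratio of 2 pooled libraries, bars are 95% intervals for counting error only, and dashed lines mark 2-fold. Nr1i3 in FS versus VS, at -1.13, is the only point outside the dashed lines, and the bars of Onecut1 are the widest.

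In the additive model, Nr1i3 and Foxa2 fell with amyloidosis, and none of the 9 factors rose with it. That is 2 of 9, all lower, against 2.17% of genes that fell and 4.97% that changed in either direction. At an unadjusted p below 0.05 there were 4 of the 9 (also Cebpa and Nr1h4), against 21.4% of genes. With IT, 0 of 9 factors passed by edgeR at an adjusted p below 0.05, against 1.48% of genes. At an unadjusted p below 0.05, edgeR gave 3 of the 9 with IT (Cebpa, Nr1i2 and Onecut1), against 14.7% of genes. DESeq2 and limma-voom in the same additive design also gave 0 of 9 with IT after adjustment.

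HNF4A is the nuclear factor on which most liver-specific genes depend. Hnf4a (ENSMUSG00000017950, chr2:163506808-163572910, plus strand) stood at 728 CPM in VS (717 to 738), 836 CPM in VI (824 to 847), 792 CPM in FS (782 to 802) and 1014 CPM in FI (1001 to 1026). FI was the highest library and VS the lowest, a 1.39-fold range, and 50.6% of tested genes had a smaller one. The log2 ratio was 0.20 (0.17 to 0.23) in VI against VS and 0.36 (0.33 to 0.38) in FI against FS. Fibril against vehicle gave 0.12 (0.09 to 0.15) without training and 0.28 (0.25 to 0.31) with it. All 4 intervals lay above 0, yet neither term passed in the additive model, where the change was 0.28 for IT (SE 0.13, adjusted p = 0.38, edgeR) and 0.19 for amyloidosis (SE 0.13, adjusted p = 0.44, edgeR). An antisense gene, Hnf4aos, overlaps Hnf4a and had 44 to 130 counts per library, against 17180 to 24521 counts for Hnf4a. The sources used here do not say whether the counting used strand, so reads from such a pair cannot be told apart. The count of Hnf4a also joins transcripts from both of its RefSeq start sites.

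FOXA2 is a forkhead pioneer factor that opens chromatin at liver genes and also acts in fasting. Its gene (ENSMUSG00000037025, chr2:148042877-148046969, minus strand) was at 37.5 CPM in VS (35.1 to 40.1), 36.5 CPM in VI (34.2 to 39.0), 24.5 CPM in FS (22.7 to 26.3) and 20.7 CPM in FI (18.9 to 22.6). Both fibril libraries were below both vehicle libraries, with no overlap of the counting intervals. The log2 ratio of Foxa2 was -0.62 (-0.76 to -0.47) in FS against VS and -0.82 (-0.98 to -0.66) in FI against VI. IT gave -0.04 (-0.17 to 0.10) in vehicle mice and -0.24 (-0.41 to -0.07) in fibril mice, a difference of -0.20 whose interval reached from -0.41 to 0.01. In the additive model Foxa2 fell by 0.72 on the log2 scale with amyloidosis (SE 0.12, adjusted p = 0.016, edgeR). The adjusted p ran from 7.5e-06 to 0.11 over the alternatives, and was above 0.05 only when training was left out of the model. Bile duct cells also express Foxa2. Their 6 markers summed to 19.9 and 18.9 CPM in VS and VI, against 20.2 and 12.6 CPM in FS and FI, most of it from Spp1, which was at 16.4, 14, 15.1 and 7.15 CPM, while Cftr had 0 to 2 counts. Sox9, a duct cell factor, ran the other way at 1.48, 1.93, 3.42 and 4.01 CPM and rose with amyloidosis by 1.12 (SE 0.26, adjusted p = 0.049, edgeR). The marker sum was thus as high in FS as in VS and lowest in FI, whereas Sox9 was highest in FI, and their part in the value of Foxa2 was not tested. In bulk liver, fewer cells of a type and less RNA per cell cannot be told apart.

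C/EBPα is a leucine zipper factor that holds hepatocytes out of division and drives genes of glucose and fat metabolism. Cebpa (ENSMUSG00000034957, chr7:35119293-35121926, plus strand) was at 618 CPM in VS (608 to 628), against 402 CPM in VI (394 to 410), 421 CPM in FS (414 to 429) and 367 CPM in FI (360 to 375). VS alone was high, and the other 3 libraries lay within 367 to 421 CPM. Its log2 ratio was accordingly -0.62 (-0.66 to -0.58) in VI against VS and -0.55 (-0.59 to -0.52) in FS against VS, 2 contrasts that share VS. The 2 contrasts without VS were smaller, -0.20 (-0.24 to -0.16) in FI against FS and -0.13 (-0.17 to -0.09) in FI against VI. The log2 ratio with IT was higher in fibril than in vehicle mice by 0.42 (0.37 to 0.48). Neither term passed for Cebpa, with -0.41 for IT (SE 0.14, adjusted p = 0.25, edgeR) and -0.35 for amyloidosis (SE 0.14, adjusted p = 0.21, edgeR). The 1 contrast in which Cebpa was past 1.5-fold, VI against VS, rests on the VS library, which also held the most muscle transcripts, and its part in this value was not tested.

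HNF6 is a cut-homeodomain factor that acts in liver and bile duct development and was by far the least abundant of the set. For Onecut1 (ENSMUSG00000043013, chr9:74861921-74891781, plus strand) the 4 libraries held 60 and 110 counts in VS and VI and 91 and 114 counts in FS and FI. As CPM this was 2.54 (1.94 to 3.27), 4.52 (3.71 to 5.44), 3.08 (2.48 to 3.78) and 4.71 (3.89 to 5.66). The trained libraries were above the sedentary ones in both arms, although the intervals of VI and FS touched. The log2 ratio of Onecut1 was 0.82 (0.36 to 1.31) in VI against VS and 0.61 (0.20 to 1.03) in FI against FS. Fibril against vehicle gave 0.28 (-0.21 to 0.77) and 0.06 (-0.33 to 0.45), both intervals including 0. The change with IT was 0.72 (SE 0.23) and did not pass (adjusted p = 0.20, edgeR, 0.099 to 0.90 over the alternatives). On FPKM with a pseudocount of 1, which understates low genes, the IT ratios of Onecut1 were 0.37 and 0.27, both within 1.5-fold. Onecut1 is also active in pancreas and bile duct. Of 11 pancreas markers 8 were at 0 in every library, both insulin genes among them, and Cela1 made up most of the rest with 12.2 to 22.8 CPM. Cela2a was at 2.57 CPM in FS and at 0.423 to 0.698 CPM in the other libraries.

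**Figure D3:**
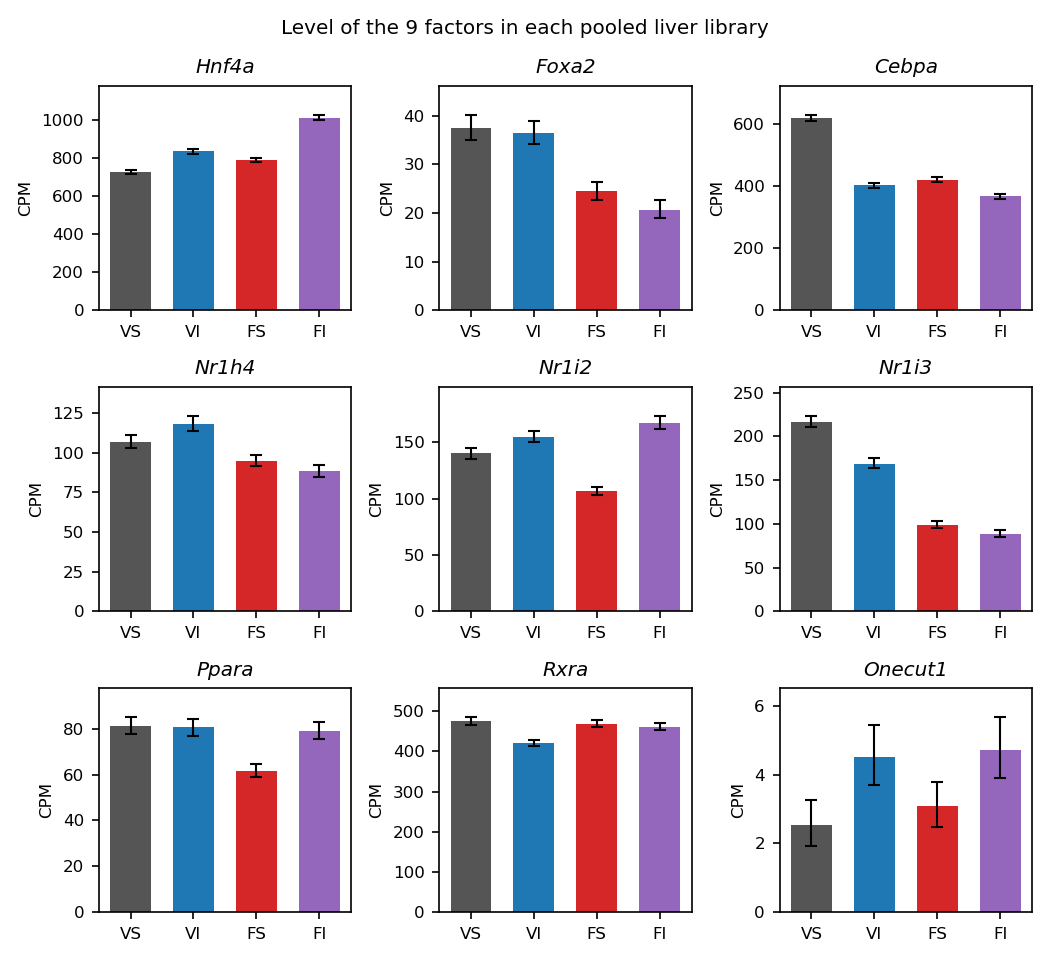
Level of each factor in the 4 pooled libraries. Bars start at 0 and give CPM, error bars are exact Poisson 95% intervals for counting error only, and each panel has its own scale. Nr1i3 and Foxa2 are low in FS and FI, Cebpa is high in VS alone, and Onecut1 is higher in the 2 trained libraries.

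Among the receptors, Nr1i3 moved most. CAR resides in the cytoplasm until drugs, bilirubin or related compounds send it to the nucleus, where it induces enzymes that clear them. Nr1i3 (ENSMUSG00000005677, chr1:171213970-171220701, plus strand) was at 217 CPM in VS (211 to 223), 169 CPM in VI (164 to 175), 99.2 CPM in FS (95.7 to 103) and 88.8 CPM in FI (85.1 to 92.7). The 2 fibril libraries lay far below the 2 vehicle libraries, and within each pair the trained library was the lower. Its range of 2.44-fold between the highest and lowest library was the widest of the 9, and 92.1% of tested genes had a smaller range. In FS against VS the log2 ratio was -1.13 (-1.19 to -1.06), and 1.51% of tested genes had a lower ratio. In FI against VI it was -0.93 (-1.01 to -0.86), with 2.35% of tested genes lower. IT gave -0.36 (-0.42 to -0.30) in vehicle mice and -0.16 (-0.24 to -0.08) in fibril mice. Nr1i3 fell by 1.04 on the log2 scale with amyloidosis (SE 0.12, adjusted p = 0.0044, edgeR), while IT gave -0.26 (SE 0.12, adjusted p = 0.36, edgeR). Over the alternatives the adjusted p for amyloidosis ran from 1.5e-13 to 0.073, above 0.05 only when training was left out of the model. Tomm40l lies on the opposite strand over part of Nr1i3 and had 45 to 128 counts per library, against 2149 to 5125 counts for Nr1i3.

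CAR is most active in the hepatocytes around the central vein, so the zonal markers were set beside it. The 8 pericentral markers summed to 12566 and 11081 CPM in VS and VI, against 7102 and 10153 CPM in FS and FI, most of it Cyp2e1. In FS against VS, 7 of 8 were lower, with a median log2 ratio of -0.27. In FI against VI, 5 of 8 were lower, with a median of -0.15. Cyp1a2, a caffeine-metabolising enzyme, and Axin2, a Wnt target, fell with amyloidosis by 0.93 (SE 0.14, adjusted p = 0.011, edgeR) and 0.97 (SE 0.22, adjusted p = 0.046, edgeR). Glul, the glutamine synthetase that defines the innermost layer of cells, was at 563, 568, 477 and 511 CPM and did not pass. The 7 periportal markers summed to 5848, 7679, 7795 and 9373 CPM in VS, VI, FS and FI, and Sds, which breaks down serine, was the 1 of them that rose with amyloidosis. The part of zonation in the value of Nr1i3 was not tested.

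**Figure D4:**
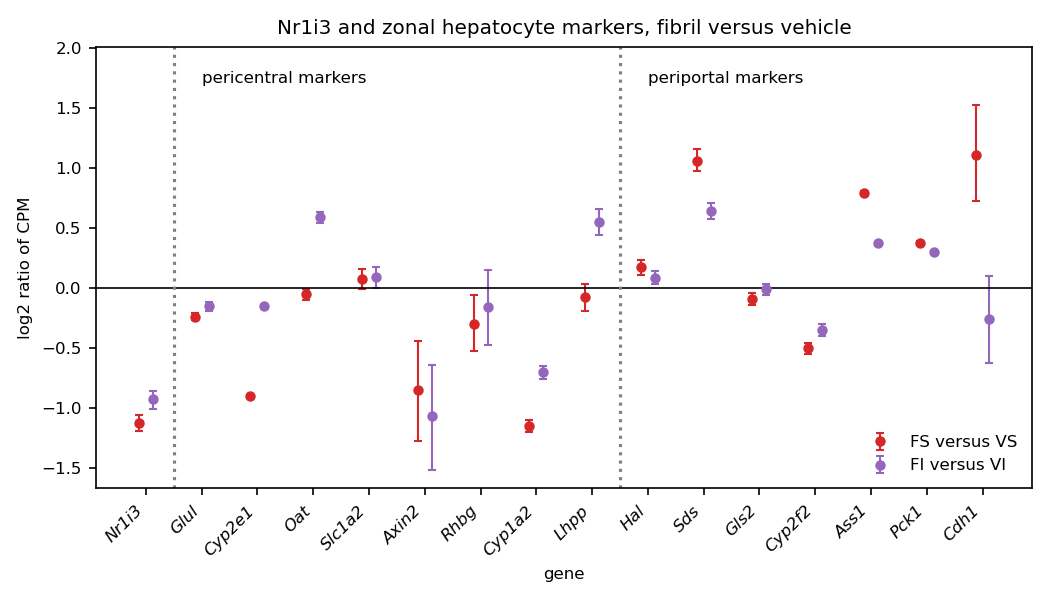
Log2 ratios of fibril against vehicle for Nr1i3, 8 pericentral and 7 periportal hepatocyte markers. Points are the ratio of 2 pooled libraries without training (FS versus VS) and with training (FI versus VI), with 95% intervals for counting error only. Nr1i3 is at -1.13 and -0.93, while Glul is at -0.24 and -0.15.

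PXR answers a broad range of drugs and steroids and shares many target genes with CAR. Nr1i2 (ENSMUSG00000022809, chr16:38248323-38294824, minus strand) was at 140 CPM in VS (135 to 145), 155 CPM in VI (150 to 160), 107 CPM in FS (103 to 110) and 167 CPM in FI (162 to 173). FS was the low library, and FI stood highest. In FI against FS the log2 ratio was 0.65 (0.58 to 0.72), 1.57-fold, and 95.1% of tested genes had a lower ratio. VI against VS gave 0.15 (0.08 to 0.22), so the IT ratio was higher in fibril mice by 0.50 (0.41 to 0.60). FS against VS gave -0.39 (-0.46 to -0.32) and FI against VI gave 0.11 (0.05 to 0.17), of opposite sign. Neither term passed for Nr1i2, with 0.40 for IT (SE 0.14, adjusted p = 0.25, edgeR) and -0.15 for amyloidosis (SE 0.14, adjusted p = 0.61, edgeR). Without the filter on low counts the adjusted p for IT was 0.045.

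The 24 listed genes of PXR and CAR did not move as a block. In FS against VS, 10 were higher and 14 lower, with a median log2 ratio of -0.29, and in FI against VI 6 were higher and 18 lower, with a median of -0.33. With IT the medians were 0.05 in vehicle and -0.05 in fibril mice. Of the 23 that entered the additive model, 5 fell with amyloidosis and 1 rose. Over all genes fitted, 2.17% fell with amyloidosis and 4.97% changed in either direction. Those that fell were Cyp2b13 and Cyp2a5, both cytochrome P450 enzymes, Abcb1a, a drug efflux pump, Aldh1a1, which oxidises retinal, and Papss2, which makes the sulfate donor. Abcb1a was at 21.2 and 24.3 CPM in VS and VI, against 10.5 and 8.43 CPM in FS and FI, and so was low in both fibril libraries, as Nr1i3 was. Cyp2b10, the best-known target of CAR, went the other way: it was at 11.2 and 31.5 CPM in VS and VI, against 41.2 and 116 CPM in FS and FI. It rose by 1.5 with IT (SE 0.11, adjusted p = 0.0012, edgeR) and by 1.88 with amyloidosis (SE 0.12, adjusted p = 0.00037, edgeR), so the library with the least Nr1i3 held the most Cyp2b10. Cyp2b13, with 632, 317, 248 and 193 CPM, fell by 1.04 with amyloidosis (SE 0.17, adjusted p = 0.015, edgeR). Cyp2a and Cyp2b genes have near-identical copies, and the counting may have split or dropped their shared reads. Cyp3a11, the main PXR-inducible P450, was at 4282, 6198, 4741 and 4963 CPM and passed for neither term.

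PPARα switches on the burning of fatty acids in peroxisomes and mitochondria. Ppara (ENSMUSG00000022383, chr15:85734983-85802819, plus strand) was at 81.2 CPM in VS (77.6 to 84.9), 80.5 CPM in VI (76.9 to 84.1), 61.6 CPM in FS (58.8 to 64.5) and 79.0 CPM in FI (75.5 to 82.7). FS stood below the other 3 libraries, whose intervals overlapped. The log2 ratio was -0.40 (-0.49 to -0.30) in FS against VS and 0.36 (0.27 to 0.45) in FI against FS. VI against VS was at -0.01 (-0.11 to 0.08) and FI against VI at -0.03 (-0.12 to 0.07). The IT ratio was higher in fibril mice by 0.37 (0.24 to 0.50). In the additive model Ppara had 0.17 for IT (SE 0.13, adjusted p = 0.59, edgeR) and -0.22 for amyloidosis (SE 0.13, adjusted p = 0.37, edgeR), and neither passed.

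Most of the 29 listed targets of PPARα were lower in FS than in VS and FI. In FS against VS 28 of 29 were lower and 11 of them by more than 2-fold, against 2.18% of all tested genes, with a median log2 ratio of -0.78. In FI against FS 27 of 29 were higher and 4 by more than 2-fold, against 1.72% of tested genes, with a median of 0.31. In FI against VI 21 of 29 were lower, with a median of -0.21, and in VI against VS 21 of 29 were lower, with a median of -0.17. These contrasts share libraries pairwise, so their counts are not separate evidence. In the additive model 8 of 29 targets fell with amyloidosis, against 2.17% of all genes fitted, and none rose. Among those that fell were Ehhadh of peroxisomal oxidation, Slc25a20, the carnitine carrier, and Fgf21, a fasting hormone. Acot3, a peroxisomal thioesterase, was at 183 and 131 CPM in VS and VI, against 46.6 and 64.3 CPM in FS and FI and fell by 1.51 (SE 0.22, adjusted p = 0.015, edgeR). Pdk4, a kinase that blocks the burning of glucose, was at 26.0, 51.0, 5.79 and 44.5 CPM, and Acot1 at 342, 361, 83.1 and 297 CPM. Both were lowest in FS, as Ppara was, but Pdk4 in VS was also well below VI and FI. Neither gene passed for either term. With IT, Cyp4a32 rose and the fatty acid transporter Cd36 fell. Acot and Cyp4a genes also have near-identical copies that could share reads.

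**Figure D5:**
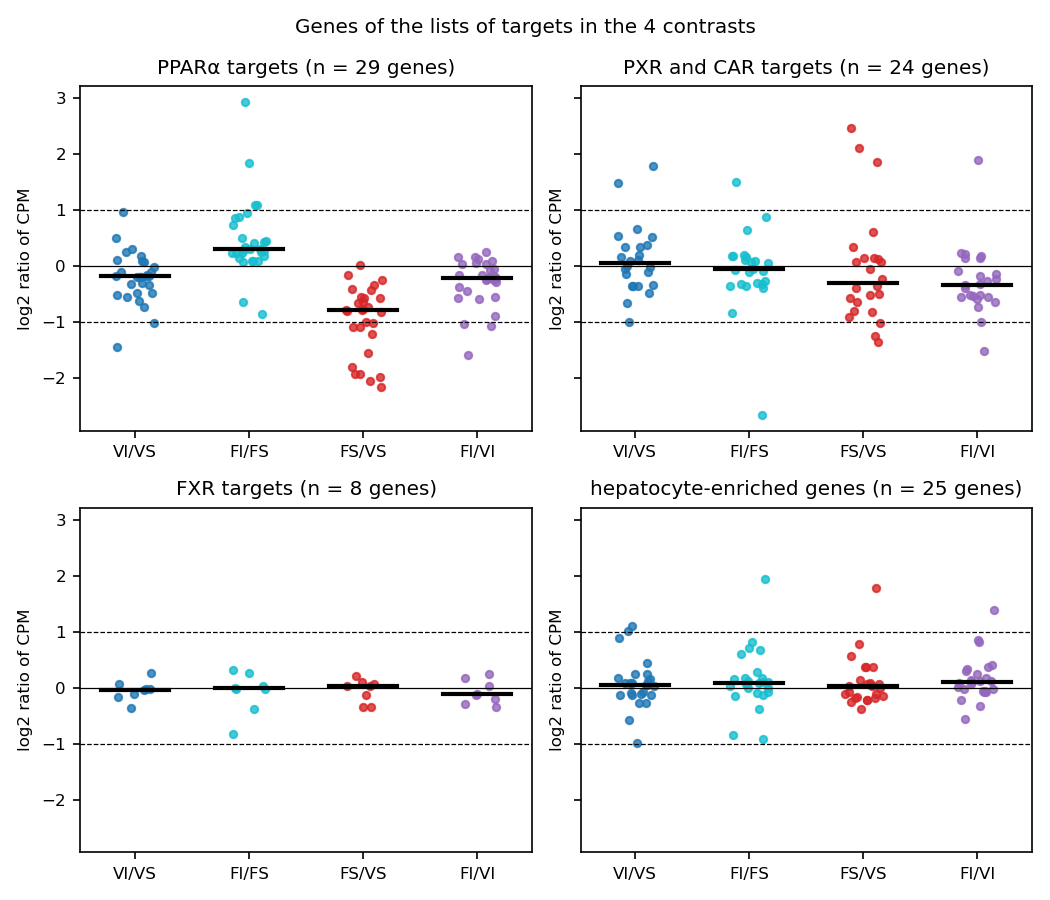
Log2 ratios of CPM for the listed target genes in the 4 contrasts. Each point is 1 gene, black bars are medians and dashed lines mark 2-fold. The PPARα targets have their median at -0.78 in FS/VS and 0.31 in FI/FS, while the medians of the FXR targets lie between -0.11 and 0.04.

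FXR holds the bile acid pool in check by inducing Nr0b2 (SHP), which in turn represses bile acid synthesis. Nr1h4 (ENSMUSG00000047638, chr10:89454234-89533585, minus strand) was at 107 CPM in VS (103 to 111), 118 CPM in VI (114 to 123), 95 CPM in FS (91.5 to 98.6) and 88.5 CPM in FI (84.8 to 92.3). The fibril libraries were below the vehicle libraries, by -0.17 (-0.25 to -0.09) without training and -0.42 (-0.50 to -0.34) with it. The IT ratio was 0.15 (0.07 to 0.23) in vehicle mice and -0.10 (-0.18 to -0.02) in fibril mice. Amyloidosis gave -0.30 in the additive model (SE 0.12) and did not pass (adjusted p = 0.19, edgeR). For IT the value was 0.02 (SE 0.12, adjusted p = 0.96, edgeR).

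Of 10 listed FXR targets 8 were tested, and none passed for either term by edgeR. Their median log2 ratios were -0.04 in VI against VS, -0.01 in FI against FS, 0.04 in FS against VS and -0.11 in FI against VI. Nr0b2 itself was at 73.3 and 65.1 CPM in VS and VI, against 74.8 and 74.0 CPM in FS and FI. Baat, which joins bile acids to amino acids, was at 193, 150, 208 and 118 CPM, Apoc2, a lipase cofactor, at 204, 189, 212 and 164 CPM, and Slc27a5, which activates bile acids, at 1036, 1014, 813 and 831 CPM. Among the genes that FXR signalling lowers, Cyp8b1, the enzyme that makes cholic acid, fell by 0.66 with amyloidosis (SE 0.12, adjusted p = 0.022, edgeR), with 209, 303, 146 and 177 CPM. Cyp7a1, the rate-limiting enzyme of bile acid synthesis, was at 114, 112 and 107 CPM in VS, VI and FS and at 34.1 CPM in FI, and passed for neither term (adjusted p = 0.58 for IT and 0.43 for amyloidosis, edgeR). Slc10a1, which takes bile acids up from blood, was at 466 to 531 CPM.

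RXRα is the shared partner of FXR, PXR, CAR and PPARα. Rxra (ENSMUSG00000015846, chr2:27676440-27762957, plus strand) was at 476 CPM in VS (467 to 485), 421 CPM in VI (413 to 429), 469 CPM in FS (461 to 477) and 462 CPM in FI (454 to 471). VI was slightly low and the other libraries lay close together. Its 1.13-fold range was the narrowest of the 9, and only 7.54% of tested genes had a narrower one. The log2 ratio was -0.18 (-0.21 to -0.14) in VI against VS, -0.02 (-0.06 to 0.02) in FI against FS, -0.02 (-0.06 to 0.02) in FS against VS and 0.13 (0.10 to 0.17) in FI against VI. Neither term passed for Rxra, with -0.10 for IT (SE 0.13, adjusted p = 0.79, edgeR) and 0.05 for amyloidosis (SE 0.13, adjusted p = 0.86, edgeR).

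The rest of the hepatocyte network was described from lists of other factors and of hepatocyte genes. Of 19 further hepatocyte transcription factors, Tbx3, a T-box factor, and Nfib, a nuclear factor I protein, fell with amyloidosis, and none passed with IT. Across all genes fitted, 2.17% fell with amyloidosis and 1.48% changed with IT. Tbx3 was at 24.0 and 18.9 CPM in VS and VI, against 11.4 and 9.34 CPM in FS and FI, a change of -1.05 with amyloidosis (SE 0.14, adjusted p = 0.0072, edgeR). Hhex, a homeobox factor, was at 40.3, 86.9, 40.9 and 40.1 CPM and Gata4, a zinc finger factor, at 15.4, 13.6, 8.06 and 13.6 CPM. Both had 1 library apart from the other 3 and did not pass. Of the other nuclear receptors 24 of 27 were tested. Nr1d1, the clock repressor REV-ERBα, was at 30.0, 7.10, 49.0 and 7.19 CPM and fell by 2.43 with IT (SE 0.18, adjusted p = 0.0012, edgeR). Pparg also fell with IT, from 1.61 to 0.205 CPM in vehicle mice and from 1.42 to 0.0827 CPM in fibril mice. The lower value of each pair was near the level of 3 counts. Pparg met the filter on low counts only through VS and FS, so a fall with IT followed from that filter. Rxrg, a minor RXR form, was at 5.21, 5.58, 5.05 and 2.56 CPM.

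Coactivators and corepressors carry the action of these receptors. In FI against FS 14 of 15 listed coregulators were higher, with a median log2 ratio of 0.35, and 12 of 15 were higher in VI against VS, with a median of 0.14. Over all tested genes both medians were 0.00, and the share of genes that were higher was not counted. With scaling by total counts the median over all tested genes in FI against FS was -0.07. Lpin1, a phosphatidate phosphatase that also coactivates PPARα, was the 1 that passed and it rose with both factors. Its level was 111 and 241 CPM in VS and VI, against 429 and 690 CPM in FS and FI. The change was 0.91 with IT (SE 0.14, adjusted p = 0.026, edgeR) and 1.73 with amyloidosis (SE 0.15, adjusted p = 0.0014, edgeR). Ppargc1a (PGC-1α), a coactivator of fasting metabolism, was at 11.0, 19.9, 17.5 and 25.6 CPM (adjusted p = 0.061 with IT and 0.086 with amyloidosis, edgeR), and Ppargc1b at 5.51, 3.69, 4.00 and 6.32 CPM.

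A list of 25 hepatocyte-enriched genes was drawn from general knowledge of the network of HNF4A, FOXA2, C/EBPα and HNF6. Their dependence on these factors was not tested. The medians of the list were near 0, at 0.05 in VI against VS, 0.09 in FI against FS, 0.03 in FS against VS and 0.10 in FI against VI. Tat, which breaks down tyrosine, rose with both factors and was at 938 and 2018 CPM in VS and VI, against 3226 and 5278 CPM in FS and FI. Trf (transferrin) and Pklr (pyruvate kinase of the liver) fell with IT. G6pc, the last step of glucose release, was at 206, 381, 181 and 694 CPM, and Ass1 of the urea cycle at 1194, 2427, 2060 and 3130 CPM. Neither passed for either term, with an adjusted p of 0.059 for G6pc and, at the threshold but not below it, 0.05 for Ass1 with IT (edgeR).

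Genes whose levels ran most like those of each factor were found by the distance between log2 CPM profiles over the 4 libraries, centred on their own mean, among genes with at least 5 CPM in every library. Nearest to Nr1i3 were Ces1e, a carboxylesterase, at a distance of 0.0522 and with 362, 287, 168 and 156 CPM in VS, VI, FS and FI, and Tbx3 at 0.0895. The genes nearest to Foxa2 were Gsta4 (0.0626), a glutathione transferase, and Ephx1 (0.0636), the microsomal epoxide hydrolase, both enzymes of detoxification. Cebpa was followed most closely by Dclre1a (0.0561), and Onecut1 by Slc35g1 (0.084) and Tfrc (0.0899), the transferrin receptor. For Nr1i2 they were Adck2 (0.0192) and Aldoa (0.0621), for Ppara Pitrm1 (0.0202) and Rtp3 (0.0334), and for Nr1h4 Ntan1 (0.0154) and Nr2f6 (0.0488). Hnf4a had Sfswap (0.0327), and Rxra had Ensa (0.0172) and Slc27a4 (0.0195), a fatty acid transporter. The names describe profiles over 4 libraries, with no test.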

How the data were processed

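Liver RNA of 4 pooled groups (VS, VI, FS and FI, 4 mice each, 16 in all) was sequenced, and each group is 1 library. The deposited tables held whole-number read counts and FPKM per gene. The submitters' processing notes name fastp 0.23.2, STAR 2.5, HTSeq 0.6.1 and the mm10 assembly. The authors' FPKM matched counts divided by gene length and total counts. The sources used here do not give the strand setting of the counting.

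Counts were scaled by TMM (edgeR 4.0.16, R 4.3.3) to CPM. Ratios were taken after adding a prior of 0.5 counts, scaled to library size, for the 12180 genes that reached 1 CPM in 1 or more libraries, and a gene was called past 2-fold. Intervals are 95% Clopper-Pearson (ratios) and Poisson (levels, scipy 1.17.1), and a normal interval on the log scale was used for the difference of IT ratios. The additive model (IT and amyloidosis) used the robust quasi-likelihood test of edgeR on the 11760 genes that reached 1 CPM in 2 or more libraries, with p-values adjusted over all of them by Benjamini-Hochberg and a threshold of 0.05. DESeq2 1.42.0 and limma-voom (limma 3.58.1) were alternatives. Steps were tested on simulated data. The symbol of an earlier row was repeated on 70 rows, none of them a listed gene. Adgre1 and Jchain were matched through RefSeq synonyms.

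The 9 factors, the 8 pathway lists and the 12 marker lists were chosen with earlier results of these data known. The text names every factor, the 3 genes of each list with the largest ratio in any contrast among those that reached 5 CPM in 1 library, Nr0b2, Cyp7a1 and the 2 genes nearest to each factor. A few genes that these rules select are not reported here. Nfib, Pparg, Trf, Pklr, Ehhadh, Slc25a20, Fgf21, Cyp4a32, Cd36, Cyp2a5, Aldh1a1, Papss2 and Cyp3a11 were named after their values were seen, as were the marker genes given singly. Promoters are from RefSeq (GRCm38.p6). All 9 factors matched, with 13 start sites, and the 5 windows printed overlap no annotated untranslated region.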

Additional observations from a re-analysis of the deposited data

Results flagged for a closer look

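Nr1h4 and Nr1i2 had effects of opposite sign under the same contrast in the 2 arms of the study. For Nr1h4 the log2 ratio with IT was 0.15 in vehicle livers (VI versus VS) and -0.10 in fibril livers (FI versus FS). For Nr1i2 the log2 ratio with amyloidosis was -0.39 in sedentary livers (FS versus VS) and 0.11 in trained livers (FI versus VI). Each arm is 1 library per group, so the differences between arms were not tested across mice. In both genes the interval for counting error of each ratio lay on 1 side of 0. Signs also differed for Ppara with IT (-0.01 in vehicle, 0.36 in fibril livers) and for Rxra with amyloidosis (-0.02 in sedentary, 0.13 in trained livers). In each of these the smaller ratio had an interval that included 0. The share of all tested genes with such a difference in sign was not counted, so it is not read as particular to these factors.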

How the results depend on the processing

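The number of genes past 2-fold moved with the filter and the fold. Without a filter on low counts it was 4035 with IT in vehicle and 4044 in fibril livers, and 4429 with amyloidosis in sedentary and 4197 in trained livers, against 419, 519, 704 and 553. With a filter at 5 CPM it was 144, 203, 353 and 229, and at 1.5-fold it was 1421, 1648, 2133 and 1703. At 1.5-fold 2 factors were past the threshold in each contrast. This count was repeated under the other scalings after the data were seen. It became 0 in FI versus FS with total counts or FPKM, and 3 in FS versus VS with upper quartile scaling (Cebpa added). With an FPKM pseudocount of 1 it became 1 in both VI versus VS and FS versus VS, where Onecut1 and Foxa2 dropped out. In the additive model, leaving out the filter gave 740 genes with IT (174 otherwise), 1 of them a factor (Nr1i2), and 1519 genes with amyloidosis (585 otherwise). With 1 factor of the design alone, 0 genes passed with IT by edgeR (650 at an unadjusted p below 0.05) and 8 with amyloidosis, and 0 of the 9 factors passed with amyloidosis (2 at an unadjusted p below 0.05). Of the 36 ratios of the factors, Rxra in FS versus VS alone changed sign, from -0.02 to 0.004 with scaling by total counts or with FPKM. The largest shift was 0.45, for Onecut1 in VI versus VS, from 0.82 to 0.37 under an FPKM pseudocount of 1. Nr1i3 stayed the 1 ratio past 2-fold under the 6 scalings and pseudocounts tried. No paired analysis was possible because each group is 1 pooled library. Leaving out a library leaves no residual degree of freedom, and the contrasts that avoid it give its value. Onecut1, with 60 to 114 counts, is limited by depth.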

Other observations

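Among the markers of other cell types, the 3 skeletal muscle genes Acta1, Mb and Tnnt3 fell with IT and with amyloidosis in the additive model (edgeR, adjusted over all genes). Acta1, the actin of skeletal muscle fibres, was at 19.3 and 2.63 CPM in VS and VI, against 0.237 and 0 CPM in FS and FI. All 3 genes met the filter on low counts only through VS and VI. The 12 muscle markers together summed to 1.08 CPM in FS, Acta1 included, and to 0.951 CPM in FI. The fall of Acta1, Mb and Tnnt3 with amyloidosis followed from that filter and is no separate result. Krt7 and Krt19, the keratins of bile duct cells, were at 0.169 to 1.35 CPM. Marco, a scavenger receptor of macrophages, Lyve1 of the sinusoidal endothelium and Prtn3, a neutrophil protease, rose with amyloidosis. Each was the only marker of its list to pass for amyloidosis, of 8, 7 and 3 fitted. In FS against VS, 4 of the 7 sinusoidal endothelial markers were lower, with a median log2 ratio of -0.12. All 8 Kupffer cell and macrophage markers and all 3 tested neutrophil markers were higher in that contrast. Stellate cell markers summed to 83.9 and 65 CPM in VS and VI, against 64.3 and 69.1 CPM in FS and FI, sinusoidal endothelial markers to 188, 183, 166 and 198 CPM, lymphocyte and plasma cell markers to 7.24, 5.99, 10.2 and 7.85 CPM, pancreas markers to 23.2, 13.4, 15.2 and 12.8 CPM, and adipose markers to at most 0.575 CPM.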
